A study of Mus musculus with 12 samples.

Results

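TRAJ segments are the joining pieces of the T cell receptor alpha chain, and the usage of every TRAJ segment was followed in T cells of the mouse brain. The members were all segments whose name starts with TRAJ among the alpha contigs, and each clone of a pool was counted once per distinct alpha chain. In this way 43 TRAJ segments were found among 166 receptor segments of both chains (89 TRAV, 43 TRAJ, 22 TRBV and 12 TRBJ), and all 43 were seen in each of the 6 pools. RefSeq annotates 60 TRAJ segments in GRCm38.p6; the other 17, of which 9 are annotated as pseudogenes, had no clone in the table used here.

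An alpha chain is made in the thymus when a TRAV gene is joined to a TRAJ segment, with bases trimmed and added at the joint. The TRAV genes lie on one side of a long row of TRAJ segments and the constant gene Trac on the other, and the first joins tend to use TRAV genes and TRAJ segments that lie near each other. A later join on the same chromosome deletes the earlier one and reaches outward to a more distant TRAV gene and a TRAJ segment nearer Trac. The TRAJ segment encodes the end of the third complementarity-determining region (CDR3), the loop that touches the presented antigen, so the choice of segment sets part of what a receptor sees. The TRAJ numbers fall along the row from the V-gene side to the Trac side, and a mean TRAJ number is therefore a mean position.

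The T cells came from the brain parenchyma of 9-month-old female littermates of 4 genotypes from crosses of hemizygous PS19 and hemizygous 5XFAD mice. WT mice carried neither transgene (pools WT-1 of 10 mice and WT-2 of 8). 5XFAD mice carried the amyloid transgenes (5XFAD-1 of 4 mice and 5XFAD-2 of 3), PS19 mice carried mutant human MAPT, the tau gene, under the mouse prion protein promoter (1 pool of 4 mice), and PS-5X mice carried both (1 pool of 4 mice). The founder PS19 line was on B6C3F1/J and the founder 5XFAD line was C57BL6 congenic, and each pool joins cells sorted as CD4+, CD8+ or γδ+ from perfused mice. The second WT pool and the second 5XFAD pool shared a sequencing run that held no other pool.

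The pools gave 11042 clones from 15099 cells with a receptor. An alpha chain was read in 9038 clones (81.9%), 1076 of them with 2 alpha chains, which gave 10114 alpha chains: 548 in WT-1, 2254 in WT-2, 1666 in PS19, 1348 in 5XFAD-1 and 1281 in 5XFAD-2, with 3017 in PS-5X. A clone was classed as CD8 or CD4 when it held 2 or more coreceptor UMIs (unique molecules) and 90% or more of them were Cd8a and Cd8b1, or Cd4. This gave 6471 CD8 chains, 1585 CD4 chains and 2058 unclassed chains. Cd40lg, a helper T cell gene that the class rule did not use, ran from 264 to 471 CPM (counts scaled to a common total) in CD4 cells of the 6 pools and from 8.35 to 26.9 CPM in CD8 cells. In unclassed cells it ran from 280 to 374 CPM, so the CD4 class may leave out part of the helper T cells. Of 5 microglia and macrophage genes, P2ry12, Tmem119, C1qa and Lyz2 stayed at or below 0.816 CPM in both classes, and Cst3 ran from 76.5 to 96.4 CPM in CD8 and from 81.4 to 112 CPM in CD4 cells. Jchain, a plasma cell gene, reached 328 CPM in the CD8 cells of PS19 and 56.3 CPM in those of 5XFAD-2 and was at or below 0.305 CPM in those of the 4 other pools; its part in the results was not tested. In WT-1, 103 of 579 clones (17.8%) carried a receptor with the same alpha and beta nucleotide sequences as a clone of another pool. WT-1 shared 65 such receptors with 5XFAD-1, 52 with PS19 and 3 with PS-5X, and PS19 shared 6 with PS-5X. Of 18208 cell barcode sequences, 166 occurred in 2 or more pools. Counts with these clones left out, and with WT-1 left out, are given where they change a call.

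The segments on which the results below turn are shown first, by the end that their CDR3s share. They were read from the clones themselves: each line gives the bases at the end of the CDR3, 5′ to 3′, that 50% or more of a segment's distinct CDR3s share, and capitals mark the bases that 90% or more share. The lower-case bases at the left are those most often trimmed at the joint.
TRAJ44: acTGGCAGTGGTGGAAAACTCACTTTG
TRAJ39: aataATGCAGGTGCCAAGCTCACATTC
TRAJ31: cAATAACAGAATCTTCTTT
TRAJ30: gacACAAATGCTTACAAAGTCATCTTT
TRAJ26: taaCTATGCCCAGGGATTAACCTTC
TRAJ22: atctTCTGGCAGCTGGCAACTCATCTTT
TRAJ18: agaGGTTCAGCCTTAGGGAGGCTGCATTTT
TRAJ15: accaGGGAGGCAGAGCTCTGATATTT
These 8 segments lie on mouse chromosome 14 between TRAJ44 at chr14:54173690-54173750 and TRAJ15 at chr14:54204422-54204481 (RefSeq, GRCm38.p6). TRAJ26 is at chr14:54194490-54194549, TRAJ22 at chr14:54197248-54197307 and TRAJ18 at chr14:54200777-54200842, all annotated as J segments. By this rule TRAJ31 had the shortest shared end of all 43 segments, 19 bases, and TRAJ18 had 30. The end of TRAJ31 was shared by 335 of 377 distinct CDR3s, and the next base by fewer than 50%, for a reason that was not tested. A shared end can be shorter than the stretch that the segment encodes, since germline sequences were not read.

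No single TRAJ segment dominated the brain repertoire. TRAJ22 was used most, by 471 of 10114 chains (4.66%), with a pool range of 3.90% to 5.58%. TRAJ18 followed with 463 chains (4.58%), then TRAJ49 with 444 (4.39%), TRAJ26 with 436 (4.31%) and TRAJ31 with 407 (4.02%). TRAJ18 had the wider spread of these, from 3.60% to 7.49% across pools, where TRAJ49 ran from 3.77% to 4.92%.

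At the low end, TRAJ35 was used by 29 chains (0.287%) and TRAJ2 by 40 (0.395%). TRAJ5 followed with 54 chains, TRAJ28 with 70 and TRAJ4 with 90. TRAJ2, TRAJ4 and TRAJ5 are the segments with a clone that lie nearest Trac, 2.62, 4.17 and 6.68 kb before it, whereas TRAJ35 lies in mid-row between segments used about 10 times as often: TRAJ34 had 282 chains and TRAJ37 had 326. In the order of all 43 segments by number of chains, the pool ranges of each segment and the next one overlapped.

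The pools used the segments in much the same proportions. Across the 43 segments, Pearson's r between the usage of any pair of pools ran from 0.666 (WT-1 and 5XFAD-2) to 0.923 (5XFAD-1 and PS-5X). WT-1, with the fewest chains, took part in the lowest of these values. Usage followed position only loosely (r = 0.303 between TRAJ number and share of chains, n = 43 segments that share the same libraries). Its r with the median number of UMIs per contig was 0.0718. That median lay between 4 and 5 for most segments, too narrow a range for this r to tell whether usage depended on it.

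**Figure D1:**
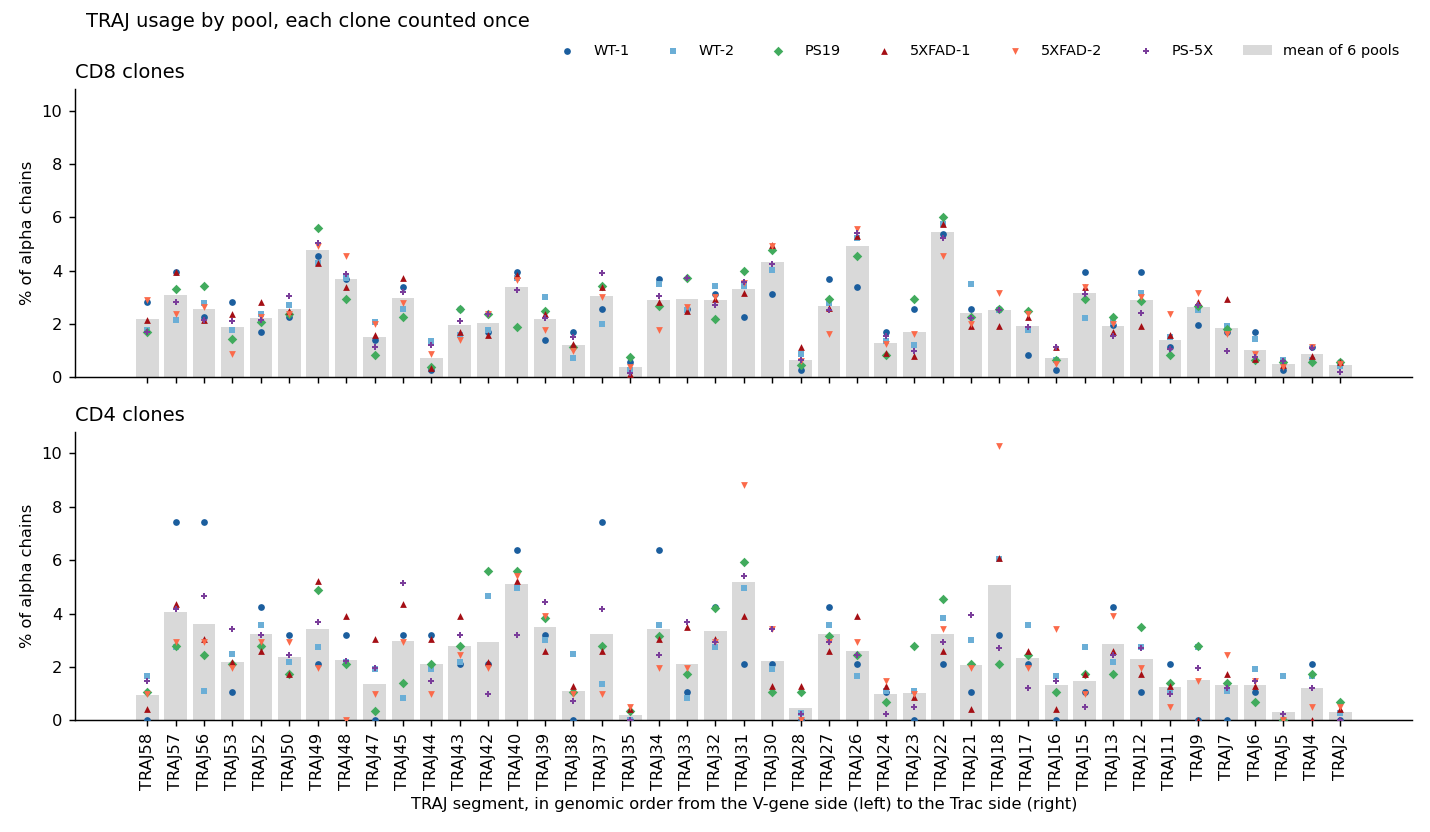
Share of alpha chains (%) that used each of 43 TRAJ segments, in genomic order from the V-gene side to the Trac side, for CD8 clones (upper panel) and CD4 clones (lower panel); points are the 6 pools and bars their mean. TRAJ22 and TRAJ26 have the tallest bars in CD8 clones, and TRAJ31, TRAJ40 and TRAJ18 in CD4 clones, where the points of single pools scatter more.

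CD8 and CD4 clones of the same pools differed in the usage of 8 TRAJ segments. TRAJ26, TRAJ30, TRAJ22 and TRAJ15 were used more in CD8 clones, and TRAJ18, TRAJ31, TRAJ44 and TRAJ39 more in CD4 clones. CD8 T cells recognise peptides on class I MHC and CD4 T cells on class II, and both are selected in the thymus on those molecules. The test was edgeR's quasi-likelihood test on numbers of chains with pool as a block, adjusted by the Benjamini-Hochberg method over all TRAV, TRAJ, TRBV and TRBJ segments tested. Of 84 segments of all kinds, 38.1% passed an adjusted p of 0.05; of 43 TRAJ segments 30 had enough chains to be tested and 8 passed, 4 in each direction (17.9% of all segments tested were higher in CD8 clones and 20.2% lower). The share of TRAJ segments called was thus below that over all segments. The median absolute log2 difference was 0.47 over the 30 TRAJ segments and 0.45 over all 84.

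TRAJ26 made up 3.40% of CD8 chains in WT-1, 5.24% in WT-2, 4.57% in PS19, 5.29% in 5XFAD-1 and 5.55% in 5XFAD-2, with 5.42% in PS-5X. In CD4 chains the same pools gave 2.13%, 1.65%, 2.45%, 3.91%, 2.94% and 2.46%. CD8 was above CD4 in 6 of 6 pools (log2 difference 1.00, SE 0.22, adjusted p = 0.00155).
TRAJ30 made up a median of 4.51% of CD8 chains (3.12% to 4.95%) and 2.03% of CD4 chains (1.05% to 3.44%). It was higher in CD8 clones in 6 of 6 pools, with a log2 difference of 0.96 (SE 0.26, adjusted p = 0.00771). Only in WT-1 was the CD8 share under the highest CD4 share.

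TRAJ22, the most used segment, made up 5.38% of CD8 chains in WT-1, 5.74% in WT-2, 5.99% in PS19, 5.74% in 5XFAD-1 and 4.54% in 5XFAD-2, with 5.22% in PS-5X. Its CD4 shares were 2.13%, 3.85%, 4.55%, 2.61%, 3.43% and 2.95%. The difference was 0.69 on the log2 scale (SE 0.20, adjusted p = 0.0104) and had the same direction in 6 of 6 pools. TRAJ22, TRAJ26 and TRAJ30 passed under all 15 alternatives run for each. TRAJ15 made up a median of 3.24% of CD8 chains (2.22% to 3.97%) and 1.401% of CD4 chains (0.491% to 2.75%), a log2 difference of 0.99 (SE 0.33, adjusted p = 0.0240) with 5 of 6 pools in that direction and WT-2 in the other. Its call rested on single pools: the adjusted p was 0.0551 without WT-1, 0.0777 without 5XFAD-2 and 0.107 without PS-5X.

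Among the segments used more in CD4 clones, TRAJ18 differed most between pools. Its CD4 share was 3.19% in WT-1, 6.04% in WT-2, 2.10% in PS19, 6.09% in 5XFAD-1 and 10.3% in 5XFAD-2, with 2.70% in PS-5X, and its CD8 share ran from 1.91% to 3.15%. The log2 difference of CD8 against CD4 clones was -0.93 (SE 0.26, adjusted p = 0.0104), and CD4 was above CD8 in 5 of 6 pools, PS19 being the exception. TRAV11 was the partner of 31 of the 77 CD4 chains with TRAJ18 (40.3%) and of 10 of the 163 CD8 chains (6.13%). With this pair left out the log2 difference was -0.29 (adjusted p = 0.405), and without 5XFAD-2, with the pair kept, it was -0.72 (adjusted p = 0.0741).

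TRAJ31 made up a median of 3.49% of CD8 chains (2.27% to 4.00%) and 5.18% of CD4 chains (2.13% to 8.82%). The log2 difference was -0.64 (SE 0.19, adjusted p = 0.0145), with CD4 higher in 5 of 6 pools; without 5XFAD-2, the pool with the highest CD4 share, the adjusted p was 0.0573. TRAJ44 was rare in CD8 clones, with a median of 0.632% (0.283% to 1.36%, 58 chains), against 2.01% of CD4 chains (0.980% to 3.19%, 31 chains). Its log2 difference was -1.18 (SE 0.43, adjusted p = 0.0369), with CD4 higher in 6 of 6 pools. Its adjusted p was 0.0754 without WT-1, 0.0590 without WT-2, 0.131 without PS19 and 0.0573 without 5XFAD-2. TRAJ39 made up a median of 2.29% of CD8 chains and 3.52% of CD4 chains (log2 difference -0.62, SE 0.23, adjusted p = 0.0417, CD4 higher in 6 of 6 pools), and it missed the threshold under 10 of 15 alternatives, among them without WT-1 (0.0666), PS19 (0.0941), 5XFAD-2 (0.120) or PS-5X (0.186). The number of TRAJ segments called fell to 3 without 5XFAD-2 and to 5 without WT-1.

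**Figure D2:**
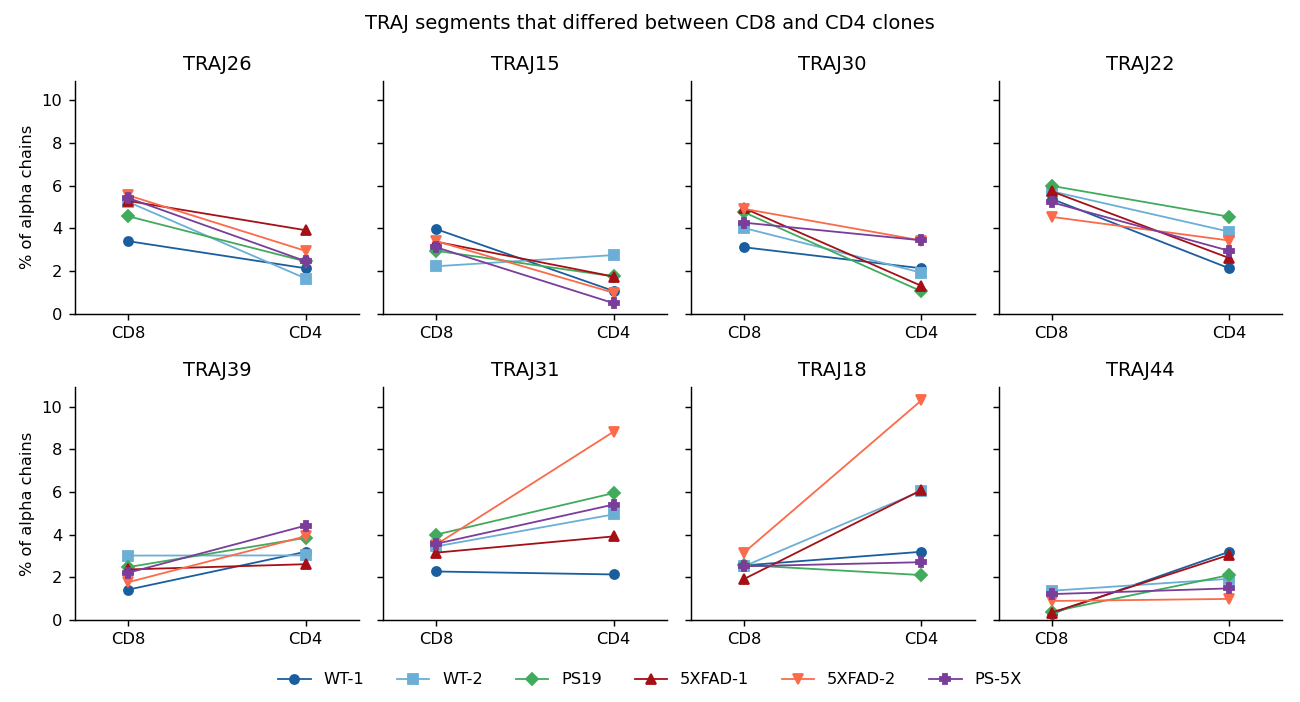
Share of alpha chains (%) in CD8 and CD4 clones for the 8 TRAJ segments that passed; each line joins the 2 classes of 1 pool. Lines for TRAJ26, TRAJ30 and TRAJ22 fall from CD8 to CD4 in all 6 pools, those for TRAJ44 and TRAJ39 rise in all 6, and the steepest rise is TRAJ18 in 5XFAD-2, to 10.3%.

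The 2 classes nonetheless shared most of their order of usage (r = 0.649 across 43 segments between the pooled CD8 and CD4 shares, from the same libraries). The mean TRAJ number was 32.5 ± 0.378 in CD8 clones and 33.6 ± 2.31 in CD4 clones (SD, n = 6 pools). The difference of -1.05 was within the spread between pools, with CD8 higher in 2 of 6 (exact permutation test over pools, two-sided, p = 0.25, adjusted over 8 such tests 0.5). The probability that a pair of chains drawn from a pool had the same TRAJ was 2.93% ± 0.110 in CD8 and 3.07% ± 0.308 in CD4 clones, and the difference of -0.147 percentage points was within the spread too (exact p = 0.5, adjusted 0.8).

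Expanded CD8 clones, those with 2 or more cells, used the TRAJ segments much as single-cell clones did. Of 23 TRAJ segments with enough of the 850 expanded and 5621 singleton chains, 0 passed edgeR's test with pool as a block (0% of 69 segments of all kinds), 2 had an unadjusted p under 0.05, and DESeq2 called 0. TRAJ57, the segment with the smallest p, made up 9.38% of expanded CD8 chains in WT-1, 2.52% in WT-2, 4.81% in PS19, 8.87% in 5XFAD-1 and 0.901% in 5XFAD-2, with 5.31% in PS-5X. Its share of singleton chains ran from 2.11% to 3.43%. Expanded was above singleton in 5 of 6 pools (log2 difference 0.88, SE 0.30, adjusted p = 0.273). TRAJ30 had a log2 difference of -0.66 (adjusted p = 0.808) and TRAJ18 one of 0.58 (adjusted p = 0.931). WT-1 contributed only 32 expanded CD8 chains. The shares of singleton and expanded chains correlated across segments (r = 0.875, n = 43). Markers of naive T cells moved with clone size: Ccr7, a lymph node homing receptor, ran from 497 to 775 CPM in singleton CD8 cells and from 23.1 to 76.1 CPM in expanded ones, and its part in the comparison was not tested.

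The largest clones did not share a segment. The largest, 363 cells of PS-5X (6.94% of its cells with a receptor), used TRAJ37 with TRAV14D-2. The next, 156 cells of 5XFAD-1, carried 2 alpha chains, with TRAJ48 and TRAJ45; a PS-5X clone of 110 cells carried TRAJ22 and TRAJ24; a 5XFAD-1 clone of 100 cells used TRAJ32 and a PS-5X clone of 72 cells TRAJ50. All 5 were CD8 clones. One alpha CDR3 of each is shown because these receptors were carried by the most cells; capitals mark the bases that match the segment's own shared end.
PS-5X, 363 cells, TRAJ37: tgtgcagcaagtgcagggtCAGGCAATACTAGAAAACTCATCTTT
5XFAD-1, 156 cells, TRAJ48: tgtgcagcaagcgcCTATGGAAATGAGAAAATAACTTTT
PS-5X, 110 cells, TRAJ22: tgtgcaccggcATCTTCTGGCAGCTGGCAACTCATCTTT
5XFAD-1, 100 cells, TRAJ32: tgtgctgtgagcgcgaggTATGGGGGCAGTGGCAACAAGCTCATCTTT
PS-5X, 72 cells, TRAJ50: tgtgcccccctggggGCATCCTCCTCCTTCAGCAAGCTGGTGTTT
Counting cells in place of clones would let these clones set the usage: TRAJ37 had 326 chains but 798 cells, of which 1 clone held 363.

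TRAJ usage was next compared between the pools with the amyloid transgenes (5XFAD-1, 5XFAD-2 and PS-5X) and those without (WT-1, WT-2 and PS19), with tau as a second term. In CD8 clones 39 of 43 TRAJ segments were tested and 0 passed (0% of 116 segments of all kinds), 1 had an unadjusted p under 0.05, and DESeq2 called 0. TRAJ23 was that 1: it made up 2.55%, 1.22% and 2.95% of CD8 chains in WT-1, WT-2 and PS19 and 0.787%, 1.64% and 1.005% in 5XFAD-1, 5XFAD-2 and PS-5X. The groups overlapped, and the log2 difference was -0.94 (SE 0.40, edgeR adjusted p = 0.371). TRAJ37 had a log2 difference of 0.39 (adjusted p = 0.663). TRAJ21 had one of -0.45 with the same adjusted p, and its 3 amyloid pools, at 1.91% to 2.21%, lay below the 3 others, at 2.28% to 3.51%. This was not particular to TRAJ21: the groups of TRAJ26 (higher with amyloid) and TRAJ27 (lower) did not overlap either. With 3 pools against 3, random labels separate a segment with a probability of 0.1. The share separated over all segments was not counted, so these separations are not read as differences.

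In CD4 clones, with fewer chains, 12 TRAJ segments could be tested for amyloid and 0 passed (0% of 44 segments; 2 had an unadjusted p under 0.05; DESeq2 called 0). TRAJ42 made up 2.13%, 4.67% and 5.59% of CD4 chains in the pools without amyloid and 2.17%, 1.96% and 0.983% in the pools with it, a log2 difference of -1.53 (SE 0.65, edgeR adjusted p = 0.546). TRAJ45 went the other way, 3.19%, 0.824% and 1.399% against 4.35%, 2.94% and 5.16% (1.60, SE 0.70, adjusted p = 0.546). The groups of both segments overlapped through WT-1, whose CD4 shares rest on 94 chains. TRAJ18 had a log2 difference of 0.54 (adjusted p = 0.980).

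For tau (PS19 and PS-5X against the other 4 pools, with amyloid as a second term) the same 39 and 12 segments were tested. In CD8 clones 0 passed (0% of 116), 3 had an unadjusted p under 0.05, and DESeq2 called 0: TRAJ33 (log2 difference 0.55, SE 0.24, edgeR adjusted p = 0.646), TRAJ40 (-0.48, 0.653) and TRAJ47 (-0.83, 0.653) had the smallest p. TRAJ33 made up 3.71% of CD8 chains in PS19 and 3.72% in PS-5X and 2.47% to 2.65% in the 4 other pools. How many of all segments separate the tau pools in this way was not counted, so no conclusion is drawn from these shares. In CD4 clones 0 passed (0% of 44), 1 had an unadjusted p under 0.05, and DESeq2 called 0. That segment was TRAJ18, with 2.10% of the chains of PS19, 2.70% of those of PS-5X and 3.19% to 10.3% of those of the 4 other pools (log2 difference -1.47, SE 0.47, adjusted p = 0.0871). It passed only without 5XFAD-1 (-1.68, adjusted p = 0.0107), and its adjusted p ran to 0.991 in the other alternatives. TRAJ37 (0.61) and TRAJ49 (0.42) followed, both with an adjusted p of 0.791.

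Position and length did not separate the amyloid pools either. The mean TRAJ number of CD8 clones was 32.6 ± 0.479 with and 32.4 ± 0.298 without amyloid (SD, n = 3 pools each; difference 0.231, exact permutation test, p = 0.6), and within runs the difference was 0.357 in the common run and -0.0214 in the separate run. The mean CDR3 length differed by 0.0101 residues (exact permutation test, p = 1). With 3 pools against 3, this test cannot go below 0.1.

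The position of the TRAV gene and that of the TRAJ segment were compared next. The 130 TRAV genes annotated in RefSeq were ordered along chromosome 14 and cut by rank into the 44 nearest the J segments (TRAV6-4 to TRAV23), the 43 farthest (TRAV1 to TRAV13D-3) and the 43 between. Chains with a TRAV gene of the near group had a mean TRAJ number of 36.4 in WT-1, 34.4 in WT-2, 36.4 in PS19, 35.2 in 5XFAD-1 and 33.4 in 5XFAD-2, with 35.6 in PS-5X. Chains with a TRAV gene of the far group had 30.0, 28.9, 28.7, 31.1, 29.5 and 31.6. The groups did not overlap: the near group lay 5.25 higher on average (3.86 to 7.72, 6 of 6 pools; exact permutation test over pools, two-sided, p = 0.03125, the smallest that 6 pairs can give; adjusted over 8 tests 0.125, which misses the threshold). At that smallest p, the adjusted value could pass only if most of the 8 tests reached the same p. Cutting the TRAV genes into 2 groups in place of 3 gave 3.18.

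The TRAV genes nearest the J segments had the highest TRAJ numbers. Chains with TRAV19, close to the J segments, had a mean TRAJ number of 51.7 (SD 8.96, 177 chains), and those with TRAV21-DV12 had 50.1 (111 chains). TRAV1 and TRAV2, at the far end, had 27.2 (SD 8.70, 90 chains) and 26.2 (SD 10.4, 97 chains). They were not the lowest: TRAV5-1 had 24.4, TRAV12D-3 23.4 and TRAV3D-3 22.7 within the far group, and TRAV9N-4 had 23.6 in the group between. TRAV11, in the near group, had 19.2 (251 chains, 92.4% of them with TRAJ18), so the order was not even along the row. TRAV16 to TRAV21 without their D and N copies exceeded TRAV1 and TRAV2 by 22.8. A large middle stretch of TRAV genes exists in near-identical D and N copies, so that the assignment to 1 copy is uncertain there.

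Seen from the TRAJ side, the share of chains with a near TRAV gene fell along the row. It was 57.0% for TRAJ58 to TRAJ50 (1504 chains; pools 52.6% to 63.2%), 49.2% for TRAJ49 to TRAJ40, 43.3% for TRAJ39 to TRAJ30, 36.1% for TRAJ28 to TRAJ21 and 28.7% for TRAJ9 to TRAJ2 (694 chains; pools 23.3% to 43.2%). TRAJ18 to TRAJ11 broke the order with 41.5%. TRAJ18 was the segment that stood apart there: 66.5% of its chains had a near TRAV gene, TRAV11 for the larger part of them, against 23.1% for TRAJ11 and 23.4% for TRAJ12.

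Of segments with 100 or more chains, TRAJ57 (68.1%), TRAJ18 (66.5%) and TRAJ56 (57.4%) had the highest near shares and TRAJ11, TRAJ12 and TRAJ9 (27.2%) the lowest. Across the 43 segments r between TRAJ number and near share was 0.745 (Spearman 0.846), and 0.784 over the 37 with 100 or more chains; the points share the same libraries and V calls. TRAJ35, with 29 chains, had 75.9%, above its neighbours TRAJ34 (43.3%) and TRAJ37 (40.5%). Its pools ran from 20% (WT-2, 5 chains) to 100%, and PS19 held 11 of the 29 chains.

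**Figure D3:**
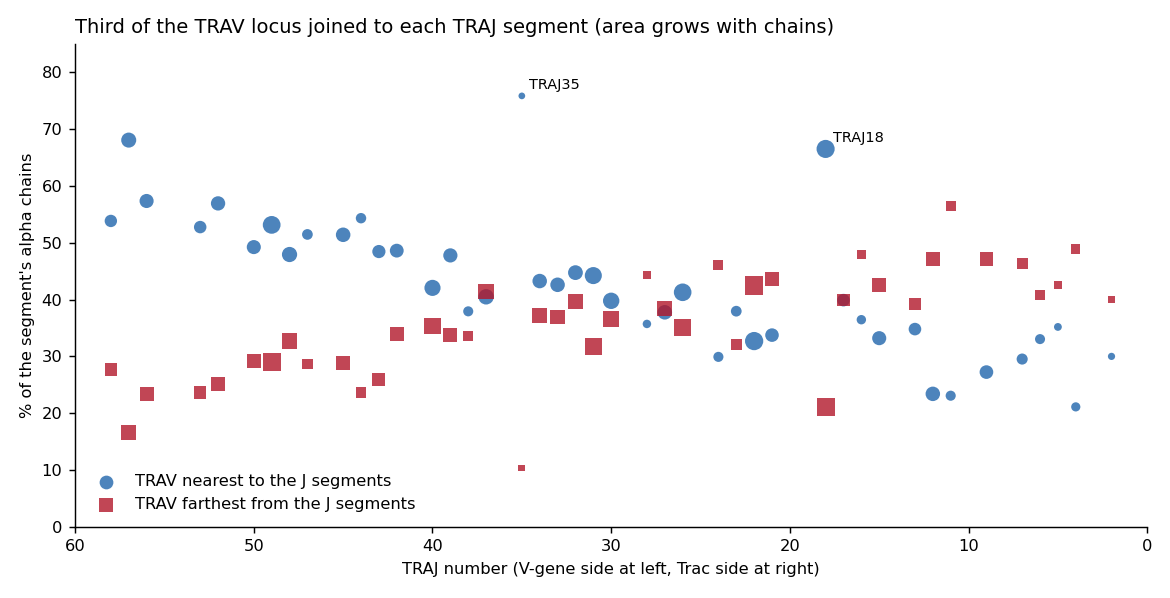
Percent of each TRAJ segment's alpha chains joined to the TRAV genes nearest to (blue circles) and farthest from (red squares) the J segments, against TRAJ number, with the V-gene side at the left; marker area grows with the number of chains. The blue share falls and the red share rises toward Trac, and TRAJ18 (66.5% near) and TRAJ35 lie above the other blue circles around them.

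The 2 alpha chains of a clone tended to use TRAJ segments that lie near each other. Both chromosomes of a cell can rearrange their alpha locus. In the 880 clones with 2 alpha chains and 1 beta chain, the TRAJ numbers of both chains correlated (r = 0.665, pools 0.598 to 0.771). They differed by 9.05 on average, against 16.7 over all pairings of the same chains. In 53 of these clones both chains used the same TRAJ segment, and their part in r was not tested. In the 196 clones with 2 alpha and 2 beta chains r was 0.194. Cell doublets were not removed, and their part in these values was not tested.

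The length of the CDR3 differed between TRAJ segments. TRAJ31 gave the shortest, 12.3 residues on average (pool means 12.0 to 12.6), followed among segments with 100 or more chains by TRAJ33 with 12.5 and TRAJ43 with 12.6. TRAJ32 and TRAJ53 gave 15.1 and TRAJ52 14.9. Across the 43 segments the mean CDR3 length followed the number of bases in the segment's shared end (r = 0.923, Spearman 0.929), both read from the same CDR3s. It did not follow position (r = 0.171 with TRAJ number).

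**Figure D4:**
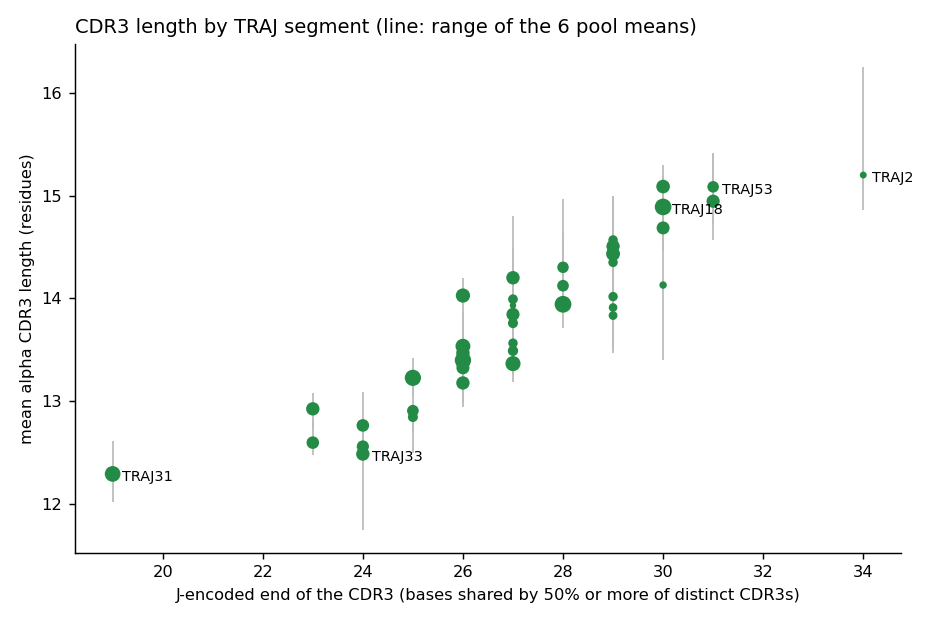
Mean alpha CDR3 length in residues against the number of bases at the CDR3 end that 50% or more of a segment's distinct CDR3s share; points are the 43 TRAJ segments, area grows with chains, and lines span the means of the 6 pools. TRAJ31 (19 bases, 12.3 residues) is at the lower left, TRAJ53 (31 bases, 15.1 residues) near the upper right.

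The CDR3 of CD8 clones was longer than that of CD4 clones by a small amount in each pool. CD8 means were 13.77, 13.73, 13.78, 13.83, 13.71 and 13.76 residues in WT-1, WT-2, PS19, 5XFAD-1, 5XFAD-2 and PS-5X, and CD4 means were 13.74, 13.71, 13.69, 13.70, 13.63 and 13.54. The difference was 0.0945 residues ± 0.0749 (SD, n = 6 pools, 6 of 6 in this direction; exact permutation test, two-sided, p = 0.03125, adjusted 0.125, which misses the threshold). The adjusted value has the limit given above for 6 pairs. The difference kept its direction with 1-alpha clones alone, at 0.0931 (exact p = 0.125). Expanded CD8 clones exceeded singleton ones by 0.0941 residues in 5 of 6 pools, PS-5X being the exception, within the spread between pools (exact permutation test, p = 0.0938, adjusted 0.25). Their mean TRAJ number differed by 0.235 (exact p = 0.75).

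TRAJ18 is the segment of the invariant alpha chain of natural killer T (NKT) cells, which pair it with TRAV11 and recognise lipids on CD1d. In these brains 232 of 463 TRAJ18 chains (50.1%) were joined to TRAV11, and 92.4% of the 251 TRAV11 chains used TRAJ18. All 232 CDR3s had 15 residues and they came from only 12 nucleotide sequences. The 3 most frequent are shown because they differ only in front of the segment's shared end, marked in capitals. That end can be shorter than the stretch that the segment encodes.
88 clones: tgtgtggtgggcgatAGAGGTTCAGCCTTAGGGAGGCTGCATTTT
46 clones: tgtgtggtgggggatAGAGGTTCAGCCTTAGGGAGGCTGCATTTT
40 clones: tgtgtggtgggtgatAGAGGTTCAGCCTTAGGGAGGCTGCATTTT
Each was found in all 6 pools. The pair made up 1.82% of chains in WT-1, 2.57% in WT-2, 1.44% in PS19, 2.52% in 5XFAD-1 and 4.68% in 5XFAD-2, with 1.52% in PS-5X; PS19 and PS-5X were the lowest and 5XFAD-2 the highest. Most of these clones, 191 of 232, were unclassed by coreceptor, and 223 of the 463 TRAJ18 chains were unclassed, 10.8% of all unclassed chains. Zbtb16, the transcription factor of NKT cells, ran from 137 to 191 CPM in their cells and from 0.628 to 3.72 CPM in CD8 cells. Outside this pair TRAJ18 had 231 chains, 2.01% to 2.81% of chains in the 6 pools.

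TRAJ33 is the segment of the invariant chain of mucosal-associated invariant T cells, which pair it with TRAV1 and recognise riboflavin metabolites on MR1. This pair was rare: 15 of 284 TRAJ33 chains (5.28%), of which 12 were in PS-5X, 2 in 5XFAD-1, 1 in WT-1 and 0 in each of the 3 other pools. Of the 15 chains, 13 had the CDR3 below, with the segment's shared end in capitals.
TRAV1 with TRAJ33: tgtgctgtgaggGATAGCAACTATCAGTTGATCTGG
The 13 clones came from 3 pools. The remaining 269 TRAJ33 chains had other TRAV genes.

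Some other alpha chains also recurred between pools. Leaving out clones whose whole receptor was found in another pool and the TRAV11 with TRAJ18 chains, 371 of 9631 chains (3.85%) had a TRAV, TRAJ and CDR3 nucleotide sequence found in 2 or more pools. By segment, and with TRAV11 chains included, such chains made up 51.2% of TRAJ18, 10.6% of TRAJ22 and 9.22% of TRAJ33 chains, the 3 highest shares. TRAJ32, TRAJ44, TRAJ24, TRAJ38, TRAJ2 and TRAJ35 had 0 such chains. The chains below are shown because they were the TRAJ22 and TRAJ48 sequences found in most clones.
TRAV14D-2 with TRAJ22, 7 clones in 5 pools: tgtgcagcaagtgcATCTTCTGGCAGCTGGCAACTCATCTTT
TRAV7D-5 with TRAJ48, 8 clones in 3 pools: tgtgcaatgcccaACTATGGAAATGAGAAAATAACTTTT
In the TRAJ22 sequence the capitals are the segment's full shared end of 28 bases, and 6 of its 7 clones were CD8. The TRAJ48 sequence is also that of a 50-cell CD8 clone of PS-5X, and all 8 of its clones were CD8.

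Several TRAJ segments were present in 2 sequence forms. In 10 segments (TRAJ44, TRAJ43, TRAJ37, TRAJ34, TRAJ32, TRAJ17, TRAJ16, TRAJ11, TRAJ9 and TRAJ5; 1972 chains, 19.5% of all) a second base was found in 10% or more of chains at 1 to 3 positions in the J-encoded end, read from the last 15 CDR3 bases and the framework bases after them. These segments were picked from the data by that rule. Where a segment had more than 1 such position, the bases went together. All but 1 chain of these segments, a TRAJ34 chain, were assigned to 1 of the 2 forms. Capitals mark the positions that differ between the common and the second form.
TRAJ37 common: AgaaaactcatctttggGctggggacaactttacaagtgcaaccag
TRAJ37 second: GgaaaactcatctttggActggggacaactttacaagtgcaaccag
TRAJ34 common: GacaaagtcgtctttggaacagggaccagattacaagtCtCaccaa
TRAJ34 second: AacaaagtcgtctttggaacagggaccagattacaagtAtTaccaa
TRAJ32 common: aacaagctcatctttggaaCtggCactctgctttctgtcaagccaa
TRAJ32 second: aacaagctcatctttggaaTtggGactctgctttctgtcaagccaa
TRAJ9 common: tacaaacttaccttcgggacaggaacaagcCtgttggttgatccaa
TRAJ9 second: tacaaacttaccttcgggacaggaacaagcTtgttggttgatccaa

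The second forms were unevenly spread over the pools. Summed over the 10 segments they made up 45.05% of chains in WT-1 (Clopper-Pearson 95% interval 35.6% to 54.8%), 32.3% in WT-2 (28.0% to 36.8%), 64.9% in PS19 (59.3% to 70.1%), 25.2% (20.02% to 31.0%) and 25.6% (20.01% to 31.7%) in the first and second 5XFAD pools, and 22.3% (19.1% to 25.8%) in PS-5X. The 3 amyloid pools lay below the 3 others, and the intervals cover counting error only, with chains of a few pooled mice as the source. TRAJ37 followed the sum, with 66.0% in PS19 and 23.2% in PS-5X, as did TRAJ43 with 64.6% and 18.99%. Several segments departed from the sum in single pools. TRAJ9 was at 53.6% of 28 chains in 5XFAD-1. TRAJ44 was at 88.9% of 18 chains in PS19. TRAJ16 was at 93.3% of 15 chains in PS19 and at 0% of 13 in 5XFAD-1. TRAJ32 was at 17.6% of 17 chains in WT-1. For the sum in WT-1, the share without receptors of other pools was 47.2%.

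Among CD8 clones the second forms made up 40.7%, 31.3% and 62.7% of these chains in WT-1, WT-2 and PS19 and 27.3%, 23.3% and 22.4% in 5XFAD-1, 5XFAD-2 and PS-5X, so that the pools with and without amyloid did not overlap. Among CD4 clones the same pools gave 57.7%, 28.0% and 70.8% and 23.9%, 32.4% and 25.6%, and they overlapped, with WT-2 below 5XFAD-2. The tau pools lay at opposite ends, PS19 highest and PS-5X lowest over all chains. The part of these sequence differences in the amyloid comparisons was not tested. In the comparison of CD8 with CD4 clones each pool is set against itself.

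**Figure D5:**
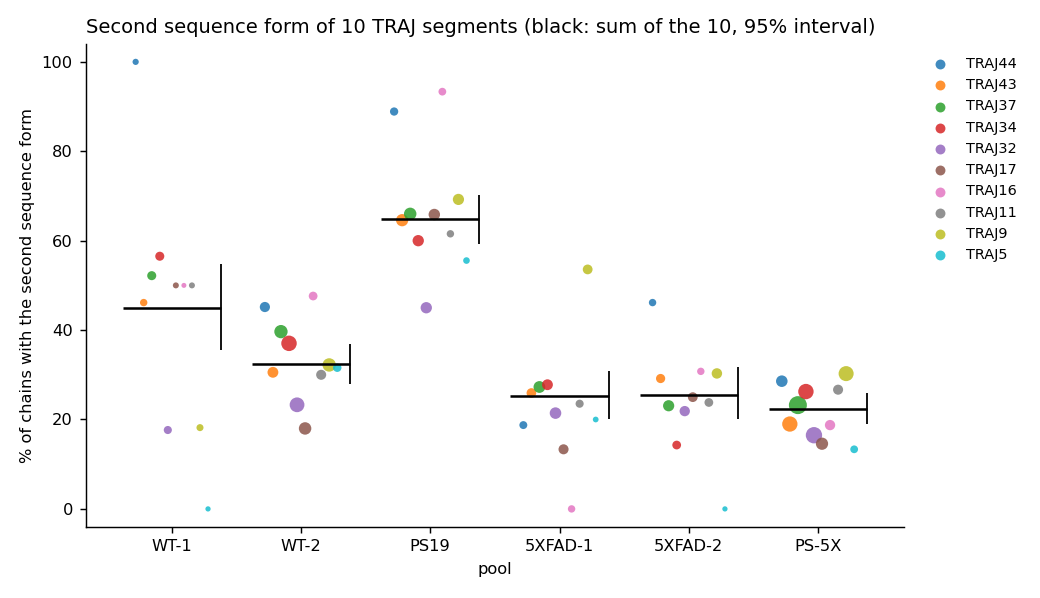
Percent of chains with the second sequence form in each of the 6 pools for 10 TRAJ segments (coloured points, area grows with chains); black bars are the sum of the 10 with its 95% interval at the right. PS19 is highest at 64.9% and the 3 amyloid pools lie between 22.3% and 25.6%.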

How the data were processed

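Reads had gone through Cell Ranger 6.0.1 in the authors' hands, per the submitters' processing notes, which name GRCm38 and mm10. The deposited matrix holds UMI counts per gene and cell, and the deposited contig table UMI counts per contig, per the file headers. All contigs listed were productive, full length and high confidence, as tested on the table. The members and the lists were chosen with earlier results of these data known.

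Clones were the authors' clonotypes within a pool, and an alpha chain was counted once per clone, TRAJ segment and CDR3 nucleotide sequence. Clones were classed from cells with a minimum of 500 genes and a mitochondrial share of 10% or less. TRAJ and TRAV segments were matched by name to RefSeq (60 and 130 annotated). Numbers of chains were tested with edgeR 4.0.16 in R 4.3.3 (filterByExpr, quasi-likelihood F test, totals per chain kind as offset), with DESeq2 1.42.0 as an alternative. On 20 simulated tables for the comparison of CD8 with CD4 clones, 89.3% of segments changed 2-fold were recovered. On unchanged segments fell 10% of calls, more than the threshold of 0.05 allows for. The simulated pools were drawn from the same segment shares, so these rates cover counting error and not the spread between real pools. Standard errors are the log2 difference over the root of F. Single values were compared by exact permutation over pools (scipy 1.17.1). Replicates are separate pools of mice, per the labels.

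Named were all segments that passed (with none, the 3 smallest p), the 5 most and 5 least used, TRAJ18 and TRAJ33, the 3 highest and 3 lowest for pairing and length among those with 100 or more chains, and the segments of the 5 largest clones. Replicate numbers of WT and 5XFAD mark the sequencing run, per the labels' descriptions. Across 43 segments, the usage of WT-1 minus WT-2 correlated only weakly with that of 5XFAD-1 minus 5XFAD-2 in CD8 clones (r = 0.151). In CD4 clones r was 0.379, with 94 chains in WT-1. Depth was 5883210 to 38616794 UMIs and 548 to 3017 alpha chains per pool.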

Additional observations from a re-analysis of the deposited data

How the results depend on the processing

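The 8 TRAJ calls between CD8 and CD4 clones were 6 with TMM factors, 6 by DESeq2, 7 without a filter, 8 without shared receptors, 10 with classes from 1 UMI and 60%, 6 with 1-alpha clones only, 5 without both WT-1 and shared receptors, and 3 to 8 with each pool left out (3 without 5XFAD-2, 5 without WT-1). With no replicate block (pool not in the model) they were 9. With the replicate block (sequencing run as a term) amyloid and tau gave 0 calls in CD8 and in CD4 clones, and the mean TRAJ number differed by 0.168 and the length by 0.00400 with amyloid. Clone size and amyloid gave 0 calls with each pool left out, and tau in CD4 clones 0 to 1. With each pool left out, the near minus far TRAV difference ran from 4.75 to 5.53 and the CD8 minus CD4 length from 0.0698 to 0.110, each with an unadjusted exact p of 0.0625, the smallest that 5 pairs allow; with 1-alpha clones the length difference was 0.0931 residues (exact p = 0.125). With all 6 pools the unadjusted p of both was 0.03125 and the adjusted p 0.125, above the threshold. The mean TRAJ number of expanded minus singleton clones ran from -0.284 to 0.730 with each pool left out, below 0 without WT-1 and without 5XFAD-1 (-0.0869), and was -0.307 with 1-alpha clones. Without shared receptors the amyloid difference was -0.0514 in TRAJ number and -0.00265 in length, and the length ran from -0.0227 to 0.0378 with each pool left out, below 0 without WT-2 (-0.00531) and 5XFAD-1. For tau in CD4 clones TRAJ37 ran from -0.089 (without PS-5X) to 1.17 (without PS19) and was -0.22 with the replicate block, where TRAJ49 was -0.021. The cause of these changes was not tested. CD4 clones of WT-1 (94 chains) limit every CD4 comparison.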
